A study of Homo sapiens with 27 samples.

Results

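A pair of short stretches of the genome in which genes follow each other on the same strand were examined after knockdown of CPSF1, namely PTMS followed by LAG3 and PSME3 followed by AOC2 and AOC3. These 5 genes were taken by symbol from 20268 genes in the count table. They were chosen by their changes in these same libraries: LAG3 had the largest rise of all tested genes in 22Rv1 cells, AOC2 and AOC3 were higher in each of the 3 cell lines, and PTMS and PSME3 are the genes directly upstream of them. The knockdown values of LAG3 in 22Rv1 cells and of AOC2 and AOC3 in any line are therefore given as descriptions without a test. RNA was sequenced from 3 human prostate cancer cell lines, hormone-sensitive LNCaP and hormone-insensitive LNCaP95 and 22Rv1, each carrying a stable lentiviral shRNA under puromycin selection. The shRNA was a control (CTRL sh) or targeted CPSF1 through either of 2 hairpins, named CPSF1 sh1 and CPSF1 sh2. Each of the 9 groups held 3 biological replicates, which made 27 libraries. Cells were seeded at 500000 per well and grown for 72 h, LNCaP95 in medium free of phenol red. Each group is a single cell line, so the replicates carry the spread between cultures and not between tumors.

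CPSF1 is the largest subunit of the cleavage and polyadenylation specificity factor, the complex that reads the AAUAAA signal near the end of a pre-mRNA and directs its cleavage. When cleavage fails, RNA polymerase can run on past the annotated end and transcribe a gene that lies close downstream on the same strand, which is called read-through. LAG3 encodes an inhibitory receptor that T and NK cells carry after activation, and its upstream neighbour PTMS encodes parathymosin, a small acidic nuclear protein related to prothymosin. PSME3 encodes the PA28 gamma activator of the nuclear proteasome. AOC2 and AOC3 are related genes for copper-containing amine oxidases: AOC2 is known from the retina, and AOC3, also called vascular adhesion protein, from endothelium, fat and smooth muscle. The comparison asks whether each downstream gene moved with its upstream neighbour. Counts were made on exons alone, so a transcript that joins neighbouring genes cannot be seen directly.

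All 5 genes lie on the plus strand of GRCh37 (hg19), with coordinates from the count table. PTMS spans chr12:6874682-6880116 in 7 merged exons with 1473 exonic bases, and LAG3 spans chr12:6881685-6887619 in 8 merged exons with 2160 bases, beginning 1568 bases after the end of PTMS. PSME3 spans chr17:40976402-40995774 with 4737 exonic bases, AOC2 spans chr17:40996617-41002724 with 2657 bases, and AOC3 spans chr17:41003201-41010147 with 4490 bases. The gap between PSME3 and AOC2 is 842 bases and that between AOC2 and AOC3 is 476 bases. The start of PTMS overlaps MLF2 and that of PSME3 overlaps BECN1, both on the minus strand, and the authors counted reads by strand. No stretch of 75 exonic bases is shared between any pair of the 5 genes. The exonic sequences of AOC2 and AOC3 were 70.4% identical over an aligned stretch of 1613 bases, with no identical run longer than 47 bases.

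The last 30 bases of each gene in GRCh37 are shown because the polyadenylation signal that CPSF reads should lie there. Capitals mark the hexamer AATAAA (written as DNA, plus strand, 5′ to 3′).
PTMS chr12:6880087-6880116: tAATAAAgaaatggtcgcgcttctgttttt
LAG3 chr12:6887590-6887619: cccagtccaAATAAActccctgtcagcagc
PSME3 chr17:40995745-40995774: tgaAATAAAgtttcctcatcttccaccttg
AOC2 chr17:41002695-41002724: tgtaatttatAATAAAaagtattagaggaa
AOC3 chr17:41010118-41010147: aAATAAAcAATAAAtgggcccaaacaggaa
The hexamer was found in all 5 genes, beginning 29 bases before the end in PTMS, 21 in LAG3, 27 in PSME3 and 20 in AOC2. AOC3 holds the hexamer in 2 copies, and the one nearer the end begins 22 bases before it. Over 20255 genes placed on 1 chromosome and strand, 47.8% hold AATAAA in the last 30 bases of the gene's own strand and 13.2% hold the variant ATTAAA. A match is a description of the letters and not of use as a site.

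None of the 3 gaps holds AATAAA or ATTAAA on the plus strand, which is given without a share over other gaps. The gap from chr12:6880117-6881684 has a GC content of 55.2%, the gap from chr17:40995775-40996616 one of 46.8%, and the gap from chr17:41002725-41003200 one of 52.5%. The first 60 bases after the upstream genes are shown because a transcript running past the annotated end would enter them first.
after PTMS chr12:6880117-6880176: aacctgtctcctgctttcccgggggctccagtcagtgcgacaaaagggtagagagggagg
after PSME3 chr17:40995775-40995834: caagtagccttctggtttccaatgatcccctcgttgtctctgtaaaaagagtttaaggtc
after AOC2 chr17:41002725-41002784: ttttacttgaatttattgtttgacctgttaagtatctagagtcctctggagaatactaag

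**Figure D1:**
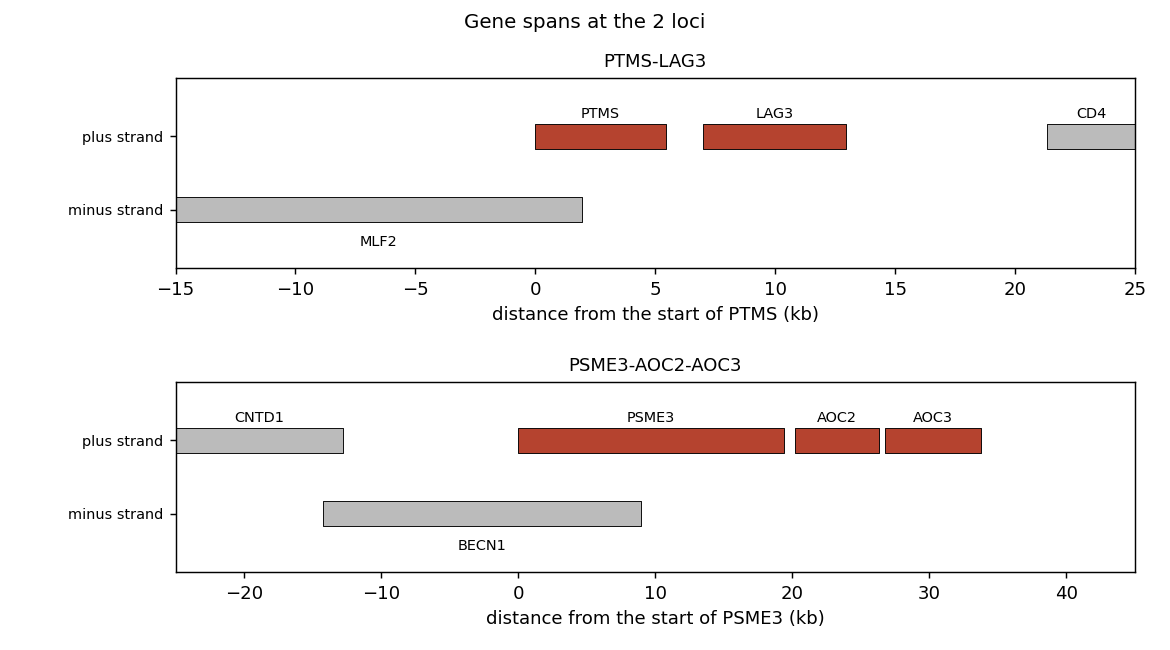
Spans of genes at the 2 loci, in kb from the start of PTMS (upper) and of PSME3 (lower), with the plus strand above and the minus strand below. The 5 genes studied are red and others grey, some of which run past the edge of the plot; LAG3 starts 1568 bases after PTMS, AOC2 842 bases after PSME3 and AOC3 476 bases after AOC2.

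Between 8515624 and 15904518 counts fell on genes in each library. CPSF1 was lower in all 6 CPSF1 sh libraries than in all 3 CTRL sh libraries of each line, and its log2 fold change was -0.65 for LNCaP, -0.89 for LNCaP95 and -0.50 for 22Rv1. All 7 prostate epithelium markers examined, among them KRT8, KRT18, EPCAM, CDH1 and HOXB13, were above 2 CPM in every line. Of 14 T and NK cell markers, none passed 2 CPM in a LNCaP or LNCaP95 library, and only CD4 did in 22Rv1. Their summed level was 0.990 to 1.80 CPM with CTRL sh and 1.81 to 3.14 CPM with CPSF1 sh in LNCaP, 0.810 to 1.27 and 0.153 to 1.27 CPM in LNCaP95, and 2.19 to 3.43 and 0.969 to 2.53 CPM in 22Rv1, and 6, 4 and 6 of the 14 genes had no count in any library of LNCaP, LNCaP95 and 22Rv1. Of 10 markers of endothelium, fat and smooth muscle in the table, 3 passed 2 CPM in a LNCaP library, 2 in LNCaP95 and none in 22Rv1. Their sum in 22Rv1 was at most 0.567 CPM with CTRL sh and 1.71 CPM with CPSF1 sh. In LNCaP the sum was 23.9 to 30.4 CPM with CTRL sh and 14.0 to 17.7 CPM with CPSF1 sh. Most of it was VWF, a blood clotting protein of endothelium, which fell by 1.23 on the log2 scale. The other markers above 2 CPM in a LNCaP library had higher means with knockdown, given without a test. PLIN1 was 0.958 and 2.51 CPM and ACTG2 0.616 and 2.20 CPM with CTRL sh and CPSF1 sh. In LNCaP95 the sum was 2.16 to 3.99 and 6.25 to 8.84 CPM, with VWF means of 1.02 and 2.75 CPM. The part of these cells' genes in the level of AOC3 was not tested. Of 5 retina markers only NRL passed 2 CPM, and the sum over the list was at most 5.42 CPM in any library.

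The upstream gene PTMS did not rise in any line and fell in 2 of them, while PSME3 rose in LNCaP95 alone among the 3 lines. Levels are TMM-normalized counts scaled to library depth (CPM) on a scale common to the 27 libraries. Calls come from edgeR fits within each line that compared 3 CTRL sh with 6 CPSF1 sh libraries at an adjusted p below 0.05. In these fits 31.1% of 11096 genes tested were called higher and 31% lower in LNCaP, 33.2 and 33.7% of 11143 in LNCaP95, and 12.7 and 14.3% of 11728 in 22Rv1, with medians over all genes of 0.00 on the log2 scale. The share of all genes whose 6 knockdown libraries do not overlap the 3 controls is not given. Such separation is therefore only a description of each gene. In bulk RNA, fewer cells expressing a gene and less RNA per cell cannot be told apart.

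PTMS in LNCaP cells was 181, 185 and 193 CPM with CTRL sh, 120.0, 115 and 129 CPM with CPSF1 sh1 and 127, 128 and 117 CPM with CPSF1 sh2. All 6 knockdown libraries were below all 3 controls, and the log2 fold change was -0.59 (standard error 0.043, edgeR adjusted p = 3.06e-08). In LNCaP95 cells PTMS was 208, 181 and 203 CPM with CTRL sh, 174, 162 and 168 CPM with CPSF1 sh1 and 165, 157 and 164 CPM with CPSF1 sh2. Again the groups did not overlap, and the log2 fold change was -0.22 (standard error 0.050, adjusted p = 0.00158). For 22Rv1 the level was 347, 348 and 360.3 CPM with CTRL sh, 324, 332 and 362 CPM with CPSF1 sh1 and 271, 275 and 265 CPM with CPSF1 sh2. Here the CPSF1 sh2 libraries were the lowest, while 1 CPSF1 sh1 library was above all controls. The log2 fold change of -0.20 (standard error 0.083) did not pass the threshold (adjusted p = 0.0949), but without CPSF1 sh1 replicate 3 it was -0.25 with an adjusted p of 0.00601.

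PSME3 in LNCaP cells was 280.0, 274 and 280.2 CPM with CTRL sh, 279, 279 and 286 CPM with CPSF1 sh1 and 264, 266 and 269 CPM with CPSF1 sh2. The groups overlapped, and the log2 fold change was -0.0054 (standard error 0.032, edgeR adjusted p = 0.893). In LNCaP95 cells PSME3 was 172, 186 and 188 CPM with CTRL sh, 211, 212 and 225 CPM with CPSF1 sh1 and 263, 249 and 251 CPM with CPSF1 sh2. All 6 knockdown libraries were above the controls and all CPSF1 sh2 libraries above all CPSF1 sh1 libraries, and the log2 fold change was 0.40 (standard error 0.080, adjusted p = 6.37e-04). For 22Rv1 PSME3 was 239.6, 244 and 247 CPM with CTRL sh, 237, 228 and 229 CPM with CPSF1 sh1 and 234, 240.2 and 228 CPM with CPSF1 sh2. Of the knockdown libraries 5 were below all controls, and the log2 fold change of -0.056 (standard error 0.037) did not pass the threshold (adjusted p = 0.290).

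LAG3, the gene after PTMS, was several times higher with knockdown in all lines, and in each line all 6 CPSF1 sh libraries were above all 3 CTRL sh libraries. In LNCaP cells it was 0.960, 1.46 and 1.17 CPM with CTRL sh, 5.80, 4.31 and 4.32 CPM with CPSF1 sh1 and 10.2, 7.94 and 7.36 CPM with CPSF1 sh2. The controls held 10, 17 and 13 counts and lay below the 2 CPM that the fit required of every library, so LAG3 was not tested there under the main filter. With edgeR's filterByExpr in its place, LAG3 rose with a log2 fold change equal to 2.47 (standard error 0.33, adjusted p = 1.56e-05 over 12873 genes). In LNCaP95 cells LAG3 was 5.08, 4.17 and 4.71 CPM with CTRL sh, 26.8, 22.7 and 24.4 CPM with CPSF1 sh1 and 33.8, 29.1 and 27.6 CPM with CPSF1 sh2. It rose by 2.58 on the log2 scale (standard error 0.15, edgeR adjusted p = 6.57e-08), which ranked 11 among 11143 genes. For 22Rv1 the level was 2.35, 2.62 and 2.29 CPM with CTRL sh, 13.5, 19.0 and 17.6 CPM with CPSF1 sh1 and 17.4, 23.2 and 21.3 CPM with CPSF1 sh2. The controls, with 29, 29 and 22 counts, were only just above the filter. The log2 fold change of 2.95 (standard error 0.19) is the value that chose the gene, at rank 1 of 11728. Levels are on the scale of all 27 libraries and the fits on that of 1 line, so folds of means differ a little from the fitted changes. As means, LAG3 was 5.56-fold higher in LNCaP, 5.88-fold in LNCaP95 and 7.72-fold in 22Rv1.

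AOC2 and AOC3, which follow PSME3, were higher in all 6 CPSF1 sh libraries than in all 3 controls in each of the lines. AOC2 in LNCaP cells was 9.50, 12.1 and 10.5 CPM with CTRL sh, 42.6, 40.0 and 41.0 CPM with CPSF1 sh1 and 37.7, 42.4 and 39.0 CPM with CPSF1 sh2. In LNCaP95 cells AOC2 was 16.4, 13.8 and 19.1 CPM with CTRL sh, 35.9, 37.9 and 32.7 CPM with CPSF1 sh1 and 49.1, 44.9 and 47.4 CPM with CPSF1 sh2. For 22Rv1 the level was 7.12, 5.06 and 6.25 CPM with CTRL sh, 16.6, 21.0 and 16.7 CPM with CPSF1 sh1 and 24.1, 21.5 and 23.1 CPM with CPSF1 sh2. The mean was 3.78-fold, 2.52-fold and 3.34-fold higher with knockdown in LNCaP, LNCaP95 and 22Rv1, and the log2 fold changes from the fits were 1.93 (standard error 0.080), 1.37 (0.15) and 1.74 (0.16). LNCaP95 had both the highest control level and the smallest of these changes, which is given without a test.

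AOC3 in LNCaP cells was 4.61, 6.18 and 5.49 CPM with CTRL sh, 19.1, 18.9 and 17.8 CPM with CPSF1 sh1 and 21.4, 23.2 and 24.4 CPM with CPSF1 sh2. In LNCaP95 cells AOC3 was 11.9, 11.8 and 11.7 CPM with CTRL sh, 23.1, 23.2 and 23.6 CPM with CPSF1 sh1 and 33.7, 30.3 and 31.7 CPM with CPSF1 sh2. For 22Rv1 the level was 2.27, 3.88 and 2.50 CPM with CTRL sh, 12.7, 11.3 and 12.4 CPM with CPSF1 sh1 and 15.5, 16.4 and 14.9 CPM with CPSF1 sh2. The controls of LNCaP95 lay within a narrow band, whereas CTRL sh replicate 2 of 22Rv1 was well above the other two. The mean of AOC3 was 3.83-fold higher with knockdown in LNCaP, 2.34-fold in LNCaP95 and 4.81-fold in 22Rv1, with log2 fold changes of 1.95 (standard error 0.14), 1.26 (0.15) and 2.27 (0.18). By rank of the log2 fold change, AOC3 stood at 27, 177 and 3 and AOC2 at 29, 144 and 12 among all genes tested in LNCaP, LNCaP95 and 22Rv1. These ranks belong to the values that chose the genes.

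**Figure D2:**
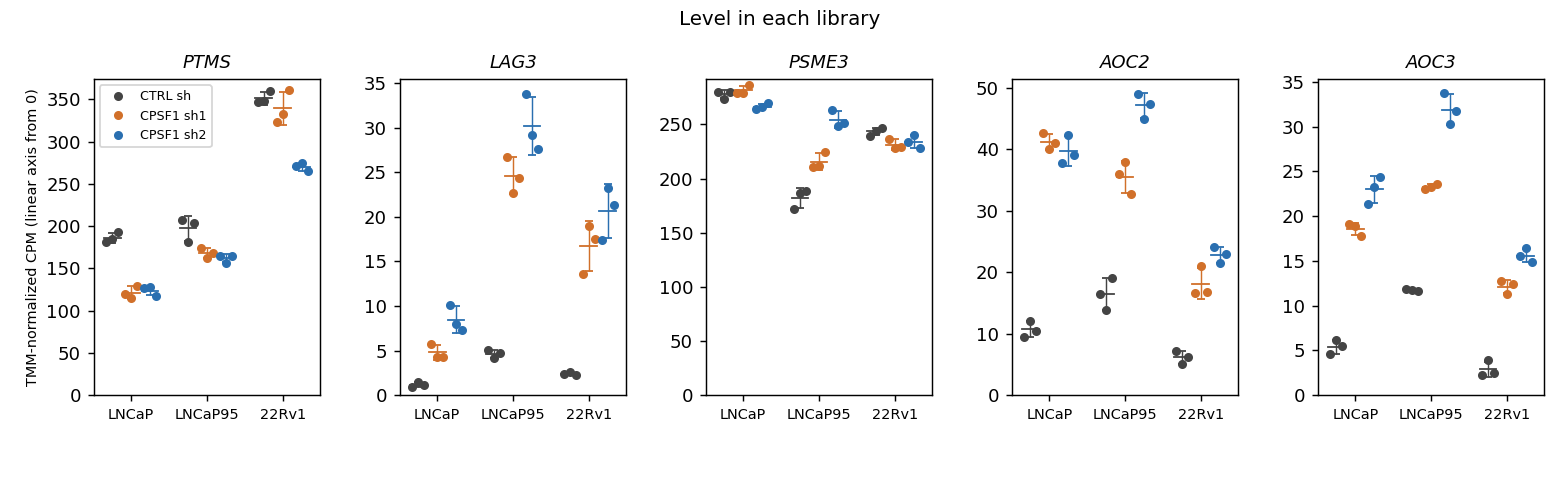
TMM-normalized CPM of PTMS, LAG3, PSME3, AOC2 and AOC3 in each of the 27 libraries, by line and hairpin, on linear axes that start at 0; points are libraries, long bars group means and error bars SD (n = 3). LAG3, AOC2 and AOC3 with either CPSF1 hairpin lie above all controls of the same line, while PTMS in LNCaP and LNCaP95 lies below them.

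The hairpins gave the same direction from CTRL sh for LAG3, AOC2 and AOC3 in all lines, as separate descriptions that share their controls. LAG3 was 4.02-fold higher with CPSF1 sh1 and 7.09-fold with CPSF1 sh2 in LNCaP, 5.28-fold and 6.48-fold in LNCaP95, and 6.90-fold and 8.54-fold in 22Rv1. The contrast of CPSF1 sh2 with CPSF1 sh1, which was not used to choose the genes, was tested in fits with 3 groups per line. In these fits 14.8% of genes were called in LNCaP, 34.1% in LNCaP95 and 11.3% in 22Rv1. In LNCaP 1 of the 4 genes tested was called, AOC3, which was higher with CPSF1 sh2 by 0.33 (standard error 0.091, edgeR adjusted p = 0.0189). It lost the call without CPSF1 sh1 replicate 3 (adjusted p = 0.0591), CPSF1 sh2 replicate 2 (0.0659) or CPSF1 sh2 replicate 3 (0.0833), and with DESeq2 (0.0739). LAG3 in LNCaP, tested with filterByExpr, was higher with CPSF1 sh2 by 0.84 (standard error 0.18, adjusted p = 0.00483).

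In LNCaP95 4 of the 5 genes differed between the hairpins, all higher with CPSF1 sh2. The log2 differences were 0.31 for LAG3 (standard error 0.085, edgeR adjusted p = 0.00822), 0.26 for PSME3 (0.045, adjusted p = 2.25e-04), 0.42 for AOC2 (0.077, adjusted p = 3.13e-04) and 0.47 for AOC3 (0.069, adjusted p = 3.42e-05). The LAG3 call was lost without CPSF1 sh1 replicate 2 (adjusted p = 0.0504) or CPSF1 sh2 replicate 1 (0.0640). PTMS differed by -0.033 (standard error 0.049) and was not called. CPSF1 itself differed by 0.00041 between the hairpins in this line (standard error 0.084, adjusted p = 0.998), by -0.14 in LNCaP (0.053, adjusted p = 0.0773) and by 0.067 in 22Rv1 (0.069, adjusted p = 0.578), none of which passed the threshold.

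In 22Rv1 only PTMS was called, lower with CPSF1 sh2 by 0.32 on the log2 scale (standard error 0.044, edgeR adjusted p = 3.63e-04). LAG3 differed by 0.31 (standard error 0.12, adjusted p = 0.123), AOC2 by 0.35 (0.11, adjusted p = 0.0533) and AOC3 by 0.37 (0.12, adjusted p = 0.0537), and none of these passed. The AOC2 difference was called without CPSF1 sh1 replicate 2 (adjusted p = 0.0250). The AOC3 difference was called without CTRL sh replicate 2 (0.0347), CPSF1 sh1 replicate 1 (0.0418) or CPSF1 sh1 replicate 3 (0.0436). The edgeR 4 quasi-likelihood form called both, with adjusted p = 0.0438 for AOC2 and 0.0429 for AOC3. In 22Rv1 the lower PTMS and the higher LAG3 level thus both belonged to CPSF1 sh2 as group means.

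**Figure D3:**
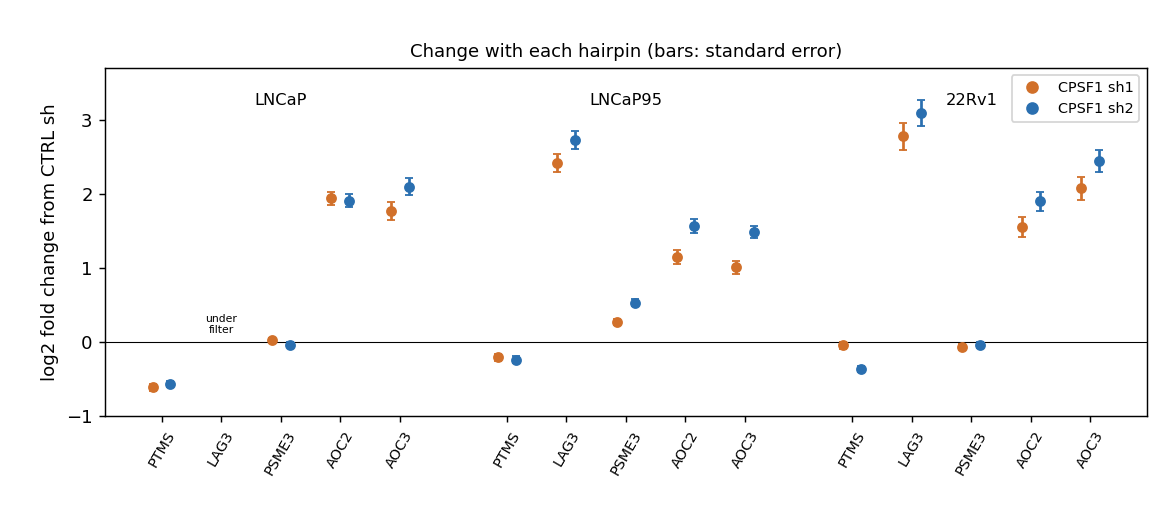
Log2 fold change from CTRL sh for CPSF1 sh1 (orange) and CPSF1 sh2 (blue) of PTMS, LAG3, PSME3, AOC2 and AOC3 in each line, with standard errors from the fit of 9 libraries. LAG3, AOC2 and AOC3 lie well above 0 with both hairpins while PTMS lies at or below 0; LAG3 in LNCaP was under the filter.

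With the control hairpin the lines already differed in these genes. LAG3 was 1.20 ± 0.251 CPM in LNCaP, 4.66 ± 0.458 CPM in LNCaP95 and 2.42 ± 0.175 CPM in 22Rv1 (SD, n = 3). AOC2 was 10.7 ± 1.31, 16.4 ± 2.63 and 6.14 ± 1.04 CPM, and AOC3 was 5.43 ± 0.789, 11.8 ± 0.0848 and 2.88 ± 0.873 CPM in the same order. All 3 downstream genes were thus highest in LNCaP95. In an edgeR fit of all 27 libraries, LNCaP95 exceeded LNCaP by 1.95 for LAG3 (standard error 0.27, adjusted p = 1.45e-07), 0.61 for AOC2 (0.12, adjusted p = 4.59e-05) and 1.11 for AOC3 (0.12, adjusted p = 1.23e-09) on the log2 scale. LNCaP95 and LNCaP differed in 4 of the 5 genes, with 72% of all genes called. PTMS was the exception, with a difference of 0.084 (standard error 0.050, adjusted p = 0.134), although it was called at 0.14 without LNCaP95 CTRL sh replicate 2 (adjusted p = 0.0142). All 5 genes were called in 22Rv1 against LNCaP, where 81.2% of all genes were, and in 22Rv1 against LNCaP95, where 83.3% were. The control libraries also entered the changes that chose LAG3, AOC2 and AOC3, so for these genes the tests are not free of that choice. PTMS was highest in 22Rv1, by 0.92 over LNCaP (standard error 0.049, adjusted p = 4.01e-17), and there both AOC genes were lowest.

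The knockdown effect was compared between lines as an interaction in the same fit. LNCaP95 minus LNCaP gave calls in 49.2% of genes, 22Rv1 minus LNCaP in 43% and 22Rv1 minus LNCaP95 in 51.1%. The fall of PTMS was larger in LNCaP than in the other lines, with a difference of 0.34 for LNCaP95 (standard error 0.062, edgeR adjusted p = 2.85e-05) and 0.39 for 22Rv1 (0.061, adjusted p = 5.28e-06). The rise of PSME3 in LNCaP95 exceeded the change in LNCaP by 0.38 (standard error 0.045, adjusted p = 2.17e-08) and that in 22Rv1 by 0.43 in size (0.045, adjusted p = 2.96e-09). The effect on LAG3 was 0.16 higher in LNCaP95 than in LNCaP, which is within its standard error of 0.34 (adjusted p = 0.748) and that rests on LNCaP controls of 10 to 17 counts.

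To set each downstream gene beside the gene upstream of it in the same library, counts were divided by exonic length, so that the scale of the library cancels. LAG3 per length as a share of PTMS in LNCaP cells was 0.380, 0.554 and 0.429% with CTRL sh, 3.33, 2.58 and 2.30% with CPSF1 sh1 and 5.50, 4.26 and 4.30% with CPSF1 sh2. In LNCaP95 cells this share was 1.68, 1.59 and 1.60% with CTRL sh, 10.5, 9.55 and 9.92% with CPSF1 sh1 and 14.0, 12.7 and 11.5% with CPSF1 sh2. In both lines all knockdown libraries lay above all controls. The mean log2 ratio was 2.98 higher with knockdown in LNCaP and 2.79 higher in LNCaP95, with an exact two-sided permutation p of 0.0119 in each, the smallest that 84 divisions into 3 and 6 allow, and the same value after adjustment over the 2 tests. For 22Rv1 the share was 0.470, 0.522 and 0.443% with CTRL sh, 2.86, 3.90 and 3.32% with CPSF1 sh1 and 4.38, 5.77 and 5.50% with CPSF1 sh2, given without a test. Even with knockdown LAG3 stayed far below PTMS per length, at most 14.0% of it in any library.

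AOC2 per length as a share of PSME3 was 6.08, 7.92 and 6.72% with CTRL sh, 27.2, 25.6 and 25.5% with CPSF1 sh1 and 25.5, 28.4 and 25.8% with CPSF1 sh2 in LNCaP cells. In LNCaP95 cells it was 17.1, 13.2 and 18.1% with CTRL sh, 30.4, 31.9 and 26.0% with CPSF1 sh1 and 33.3, 32.2 and 33.7% with CPSF1 sh2. For 22Rv1 it was 5.33, 3.72 and 4.55% with CTRL sh, 12.5, 16.5 and 13.0% with CPSF1 sh1 and 18.4, 16.0 and 18.1% with CPSF1 sh2. The share was higher in all knockdown libraries than in the controls of every line, although PSME3 itself changed little outside LNCaP95. AOC2 was chosen for its rise in all lines, so the higher share follows in part from that choice. In LNCaP95, where PSME3 rose, the mean log2 ratio differed by 0.96, against 1.94 in LNCaP and 1.80 in 22Rv1.

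AOC2 and AOC3 were both chosen for being higher in all lines. Where the ratio between them stayed steady, this follows in part from that choice. AOC3 per length as a share of AOC2 was 28.8, 30.3 and 31.0% with CTRL sh, 26.5, 27.9 and 25.7% with CPSF1 sh1 and 33.6, 32.5 and 37.0% with CPSF1 sh2 in LNCaP cells. In LNCaP95 cells it was 42.8, 50.6 and 36.4% with CTRL sh, 38.0, 36.3 and 42.6% with CPSF1 sh1 and 40.7, 39.9 and 39.6% with CPSF1 sh2. For 22Rv1 it was 19.1, 45.6 and 24.0% with CTRL sh, 45.4, 31.7 and 44.0% with CPSF1 sh1 and 38.2, 45.2 and 38.2% with CPSF1 sh2. With both hairpins pooled, knockdown and control libraries overlapped in LNCaP, LNCaP95 and 22Rv1, and the mean log2 ratio differed by 0.011, -0.12 and 0.55. In LNCaP the hairpins lay on opposite sides of the controls, with all CPSF1 sh1 libraries below them and all CPSF1 sh2 libraries above. The difference in 22Rv1 was 0.91 without CTRL sh replicate 2, whose share was 45.6%. In level per length (FPKM), knockdown added 11.2, 9.37 and 5.40 to AOC2 and 3.42, 3.52 and 2.45 to AOC3 in LNCaP, LNCaP95 and 22Rv1, so the amount was smaller at the second gene after PSME3. LAG3 gained 2.52, 10.5 and 7.52 FPKM in the same lines. As a description, LAG3 gained least in LNCaP, the line in which PTMS fell by 43.2 FPKM.

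**Figure D4:**
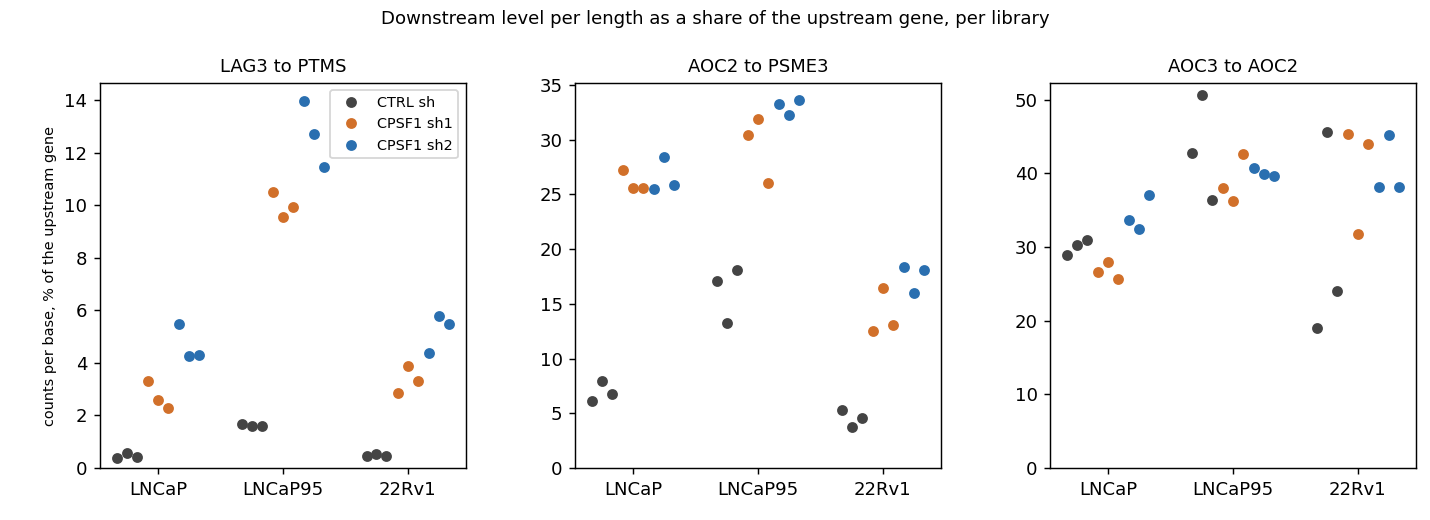
Counts per exonic base of a downstream gene as a percentage of its upstream neighbour in each library, on linear axes from 0, for LAG3 to PTMS, AOC2 to PSME3 and AOC3 to AOC2; points are libraries. The first 2 shares lie higher with knockdown in every line, while AOC3 to AOC2 overlaps between groups.

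The other genes around the loci that could be tested had smaller changes than LAG3, AOC2 and AOC3. Those 3 genes were chosen for their rises in this same contrast, so the difference follows in part from that choice. Of 22 other genes within 100 kb, 13 were tested in LNCaP, of which 4 were called higher and 2 lower. In LNCaP95 2 of 13 were called higher and 4 lower, and in 22Rv1 1 of 16 higher and none lower (edgeR). Log2 fold changes of the other genes ranged from -0.55 to 0.37 in LNCaP, from -0.54 to 0.18 in LNCaP95 and from -0.12 to 0.25 in 22Rv1. LAG3, AOC2 and AOC3 were at 1.26 or more wherever they had a value. On the opposite strand of PTMS, MLF2 had a log2 fold change of 0.020 in LNCaP and -0.011 in 22Rv1, neither called, and fell by 0.11 in LNCaP95 (standard error 0.038, adjusted p = 0.0210). On the opposite strand of PSME3, BECN1, which starts autophagy, rose by 0.37 in LNCaP (standard error 0.041, adjusted p = 2.39e-06) and by 0.18 in LNCaP95 (0.055, adjusted p = 0.00991), with a value of 0.028 in 22Rv1 that was not called. TPI1, a glycolytic enzyme, fell by 0.36 in LNCaP95 (standard error 0.044, adjusted p = 1.42e-05) and by 0.13 in LNCaP (0.033, adjusted p = 0.00378). EZH1, a histone methyltransferase, fell by 0.55 in LNCaP (standard error 0.064, adjusted p = 3.50e-06) and by 0.54 in LNCaP95 (0.075, adjusted p = 3.83e-05). USP5, a deubiquitinase, rose by 0.28 in LNCaP and 0.18 in LNCaP95, and SPSB2 rose by 0.25 in 22Rv1 (adjusted p = 0.0329). The MLF2 call in LNCaP95 was lost without CTRL sh replicate 1 (adjusted p = 0.0502) or 3 (0.116) and with library size alone (0.575). The SPSB2 call was lost without any 1 of the CTRL sh libraries or CPSF1 sh2 replicates 1 or 2, with adjusted p up to 0.127.

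The genes that come next on the plus strand past each locus did not pass the filter. CD4, the T cell co-receptor that follows LAG3 after 8404 bases, was at 0.725 CPM with CTRL sh and 1.25 CPM with CPSF1 sh in LNCaP, 0.205 and 0.121 CPM in LNCaP95, and 2.00 and 1.17 CPM in 22Rv1, which is higher with knockdown in one line and lower in the other two as means. G6PC, 42666 bases after AOC3, had 2 counts in the 3 LNCaP controls and none in any other library. WNK4, a kinase gene that follows VPS25 on the plus strand upstream of PSME3, had 1 count in the 3 LNCaP controls and 29 in the 6 knockdown libraries, with means of 0.032 and 0.457 CPM. In LNCaP95 WNK4 was 0.713 and 1.81 CPM, and in 22Rv1 1.99 and 2.38 CPM, with no test in any line. CNTD1, the plus-strand gene between WNK4 and PSME3, was lower with knockdown as a mean, at 2.03 and 1.05 CPM in LNCaP, 1.45 and 0.930 CPM in LNCaP95, and 3.41 and 1.76 CPM in 22Rv1. Low plus-strand genes of these stretches thus had means that were higher in some cases and lower in others.

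**Figure D5:**
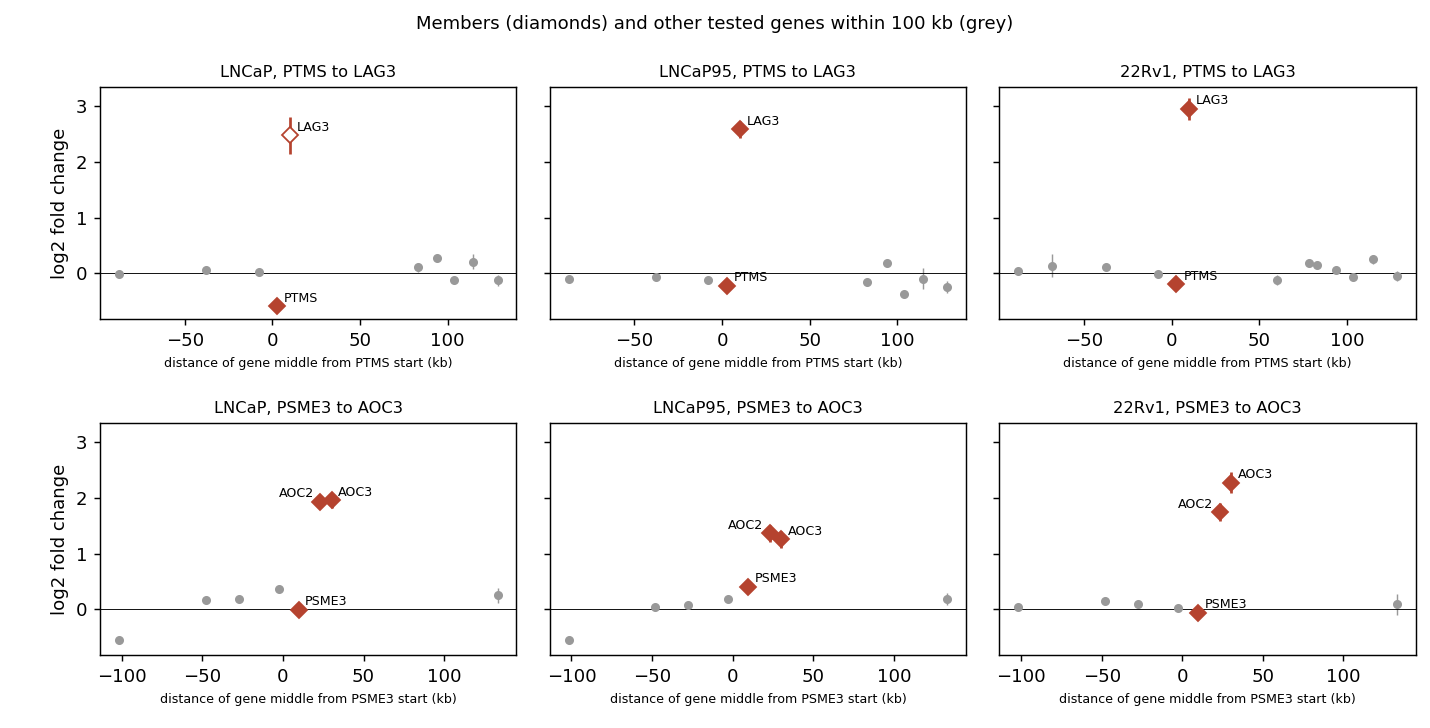
Log2 fold change with CPSF1 knockdown, with standard error, of the genes studied (red diamonds) and of other tested genes within 100 kb (grey points), against the distance of the middle of each gene from the start of PTMS (upper) or PSME3 (lower), in kb. LAG3, AOC2 and AOC3, which were chosen for their rises, stand at 1.26 or more while the grey points lie between -0.55 and 0.37. The open diamond for LAG3 in LNCaP comes from the fit with filterByExpr.

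Tested genes that follow an expressed gene on the same strand were called in shares near those of all genes. Genes that did not exceed 2 CPM in all 9 libraries of a line are left out, such as LAG3 in LNCaP. Quiet downstream genes are therefore not covered, and an expressed gene that overlaps the start was passed over as a neighbour. With an upstream gene above 2 CPM ending within 10 kb, 1653 genes were tested in LNCaP, of which 32.7% were called higher and 30.4% lower, with a median log2 fold change of 0.014. In LNCaP95 30.6% of 1677 were higher and 36.3% lower, with a median of -0.028, and in 22Rv1 14.6% of 1837 were higher and 11.6% lower, with a median of 0.014. These shares stand beside 31.1, 33.2 and 12.7% called higher among all genes. Within this class LAG3 ranked 4 in LNCaP95 and 1 in 22Rv1, AOC2 ranked 7, 34 and 7, and AOC3 ranked 6, 39 and 3 in LNCaP, LNCaP95 and 22Rv1. For LAG3 in 22Rv1 and for both AOC genes these ranks belong to the values that chose the genes.

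Relatives and partners of the 5 genes did not share 1 direction. Of 24 immune checkpoint genes and LAG3 ligands, 2 were expressed enough to test in LNCaP, 2 in LNCaP95 and 4 in 22Rv1, with 1, 2 and 1 called higher and 0, 0 and 1 called lower. With filterByExpr the counts were 2, 4 and 3 higher and 3, 2 and 1 lower. CD47 in LNCaP, at -0.11 (edgeR adjusted p = 0.0566) in the fit above, was then called lower (adjusted p = 0.0365). Over all genes this filter gave 3995 calls higher and 3977 lower of 12873 tested in LNCaP. In LNCaP95 it gave 4327 and 4319 of 12997, and in 22Rv1 1816 and 1925 of 13423. The number of genes of any list tested under it is not given, so these counts are descriptions. In the fit above the medians of this list were 0.21, 0.38 and 0.050, beside 0.00 over all genes. CD276, also called B7-H3, rose by 0.53 in LNCaP (standard error 0.045, edgeR adjusted p = 1.50e-07), 0.26 in LNCaP95 (0.069, adjusted p = 0.00535) and by 0.14 for 22Rv1 (0.047, adjusted p = 0.0357). CD47, a signal against phagocytosis, rose by 0.51 in LNCaP95 (standard error 0.085, adjusted p = 1.83e-04). FGL1, a LAG3 ligand, was tested in 22Rv1 only, at 0.25 (adjusted p = 0.335). The call of CD276 in 22Rv1 was lost without any 1 of the CTRL sh libraries or CPSF1 sh2 replicates 1 or 2 (adjusted p up to 0.148).

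Of 10 other amine oxidases, 3, 5 and 7 were tested in LNCaP, LNCaP95 and 22Rv1, with 1, 1 and 2 called higher and 1, 3 and 1 lower. With filterByExpr, whose calls over all genes are given above, the counts were 2, 3 and 3 higher and 3, 3 and 1 lower. The medians were 0.16, -0.52 and -0.010. MAOA, which breaks down monoamines, rose by 0.47 in LNCaP (standard error 0.034, edgeR adjusted p = 2.92e-08) and 0.53 in LNCaP95 (0.10, adjusted p = 4.94e-04). LOX, which crosslinks collagen, fell by 1.92 in LNCaP95 (standard error 0.31, adjusted p = 1.51e-04) and by 0.79 for 22Rv1 (0.17, adjusted p = 0.00441). SMOX, spermine oxidase, fell by 0.50 in LNCaP (standard error 0.14, adjusted p = 0.00690) and 0.62 in LNCaP95 (0.10, adjusted p = 1.87e-04). In 22Rv1 the LOX relatives LOXL1 and LOXL2 rose by 0.50 (adjusted p = 0.0241) and 0.39 (adjusted p = 0.00620), while LOXL1 fell by 0.52 in LNCaP95 (adjusted p = 8.42e-04). The call of LOXL1 in 22Rv1 was lost without CTRL sh replicate 1 (adjusted p = 0.104) or 2 (0.114).

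Of 8 proteasome activator and immunoproteasome genes, 6 were tested in each line, with 4, 1 and 0 called higher and 1, 2 and 1 lower, and with medians of 0.20, 0.018 and -0.065. With filterByExpr, whose calls over all genes are given above, 4, 1 and 0 were called higher and 2, 2 and 2 lower. PSME1, the PA28 alpha subunit, fell in each line, by 0.62 in LNCaP (standard error 0.078, edgeR adjusted p = 8.04e-06), 0.83 in LNCaP95 (0.083, adjusted p = 3.19e-06) and by 0.31 for 22Rv1 (0.071, adjusted p = 0.00559). PSMF1, a proteasome inhibitor, rose by 0.33 in LNCaP (standard error 0.039, adjusted p = 4.04e-06). PSME4, the PA200 activator, rose by 0.21 in LNCaP (standard error 0.041, adjusted p = 4.43e-04) and fell by 0.33 in LNCaP95 (0.053, adjusted p = 1.30e-04). PSMB10, an immunoproteasome subunit, rose by 0.24 in LNCaP (adjusted p = 0.0361) and PSME2, the PA28 beta subunit, by 0.18 (adjusted p = 0.00459), while FAM192A, a partner of PA28 gamma, rose by 0.18 in LNCaP95 (adjusted p = 0.0477). PTMA, the prothymosin relative of PTMS, was not called in LNCaP (-0.056) or 22Rv1 (-0.11) and rose by 0.16 in LNCaP95 (standard error 0.064, adjusted p = 0.0452). With 1 library left out, the calls of PSMB10 in LNCaP, FAM192A in LNCaP95 and PTMA in LNCaP95 were lost in 6, 6 and 7 of 9 cases, with adjusted p up to 0.171, 0.148 and 0.201.

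Across the 27 libraries, which share 9 groups and the knockdown, the log2 CPM of AOC2 and AOC3 had a Pearson r of 0.95, which placed AOC3 at rank 4 of 14440 genes by likeness to AOC2 and AOC2 at rank 2 for AOC3. Each was far less like the upstream PSME3, with r of 0.15 for AOC2 and -0.018 for AOC3. Both AOC genes were chosen for being higher with knockdown in all lines, and PSME3 only for its place upstream. The high r between AOC2 and AOC3 and the low r with PSME3 thus follow in part from that choice. The same limit applies to LAG3, which was chosen for its rise in 22Rv1, beside the upstream PTMS. For LAG3 the r with PTMS was -0.024, and the genes most like it were THAP2 (0.97), C1orf162 (0.95) and TMEM81 (0.94). For AOC2 they were TG (0.97), KLKB1 (0.97) and KIAA1683 (0.97), and for AOC3 LSMEM1 (0.96), AOC2 (0.95) and KLKB1 (0.95). TG, KLKB1 and C1orf162 were under the filter in every line. THAP2 rose in each line (1.20, 1.28 and 1.55 on the log2 scale in LNCaP, LNCaP95 and 22Rv1; edgeR adjusted p = 1.25e-04, 1.19e-07 and 1.93e-05), as did TMEM81 (1.10, 0.91 and 1.27; adjusted p = 5.09e-05, 3.01e-05 and 5.32e-05) and KIAA1683 (1.56, 1.46 and 1.76; adjusted p = 1.02e-06, 6.81e-07 and 8.73e-07). Distances were taken from the nearest same-strand gene above 2 CPM in all 9 LNCaP libraries that ends before the start. An expressed gene that overlaps the start was passed over, so a closer neighbour can be missed. The distance was 1624 bases for TMEM81, 5243 for KIAA1683, 11018 for C1orf162, 18150 for TG, 36311 for KLKB1, 137756 for LSMEM1 and 1308015 for THAP2. These genes were named for their likeness over the same libraries, so their changes add no independent test.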

How the data were processed

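RNA was taken from 27 cultures in 9 groups of 3 biological replicates. Libraries were made from polyadenylated RNA with a stranded kit and read as pairs. Per the labels and the study's methods, the authors aligned reads to hg19 with HISAT2 (version 2.1.0 in the submitters' processing notes) and counted fragments on the exons of Ensembl genes, by strand, with Subread featureCounts (version 2.0.3 in the same notes). The deposited values are raw counts per gene symbol. All 27 count columns were mapped to a sample by name.

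Genes that exceeded 2 CPM in each of a line's 9 libraries were tested with edgeR 4.0.16 in R 4.3.3 (TMM, legacy quasi-likelihood F-test, Benjamini-Hochberg adjustment, adjusted p below 0.05), with 3 CTRL sh against 6 CPSF1 sh libraries. Standard errors are the log2 fold change divided by the root of F. Hairpins were compared in a fit with 3 groups per line. Lines were compared in a fit of all 27 libraries with 9 groups and filterByExpr, which left 14441 genes. Ratios used counts plus 0.5 per exonic base. The scripts were tested on simulated data. Alternatives were DESeq2 1.42.0, the edgeR 4 quasi-likelihood form, RLE size factors, library size alone, other filters, each hairpin alone, the replicate number as a block and each library left out in turn. Depth was 8515624 to 15904518 counts per library, so that genes of few counts, such as LAG3 in LNCaP controls, are the least precise.

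The genes and lists were chosen with earlier results of these data known. The text names the 5 genes, CPSF1, genes within 100 kb, the 3 genes most like LAG3, AOC2 and AOC3 by Pearson r, and up to 4 called genes per list and line. FGL1 was added after its values were seen. Sequences and gene ends were read from the GRCh37 reference. Some genes and sequences are not reported here.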

Additional observations from a re-analysis of the deposited data

Results flagged for a closer look

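The knockdown effect on the upstream genes differed between lines by a test of the difference itself (edgeR, all 27 libraries). For PTMS the log2 fold change in LNCaP95 was 0.34 above that in LNCaP, and the one in 22Rv1 was 0.39 above that in LNCaP. For PSME3 the change in LNCaP95 was 0.38 above that in LNCaP, and the one in 22Rv1 minus that in LNCaP95 was -0.43. Such differences were common, at 43 to 51.1% of all genes.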

How the results depend on the processing

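LAG3, AOC2 and AOC3 were higher with knockdown under every alternative that gave a value. LAG3 in 22Rv1 and both AOC genes were chosen for their rises in these same libraries, so this follows in part from that choice. Log2 fold changes that moved by more than the spread between replicates were those of AOC3 in LNCaP (1.77 with CPSF1 sh1 alone, 2.10 with CPSF1 sh2 alone), AOC2 in LNCaP95 (1.15 and 1.57) and AOC3 in LNCaP95 (1.01 and 1.48, 1.34 with library size alone, 1.21 with no filter). With 1 library left out, AOC3 ranged from 1.19 to 1.31 in LNCaP95 and from 2.11 to 2.55 in 22Rv1, and PTMS in 22Rv1 from -0.25 to -0.16. PTMS in 22Rv1 was called with CPSF1 sh2 alone (-0.37). PSME3 in LNCaP turned to 0.024 with CPSF1 sh1 alone and ranged from -0.017 to 0.0031 with 1 library left out. The LAG3 to PTMS log2 ratio was 2.59 and 3.37 in LNCaP and 2.62 and 2.97 in LNCaP95 with CPSF1 sh1 and CPSF1 sh2 alone, where 3 against 3 libraries cannot give an exact permutation p below 0.1. The difference between 22Rv1 and LNCaP95 in the effect on PTMS turned to -0.057 with library size alone, and that between LNCaP95 and LNCaP for LAG3 ranged from -0.014 to 0.29 with 1 library left out. Except where values above show it, the cause was not tested.

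Other signs turned only for changes that were not called. With CPSF1 sh1 alone these were ZNF384 (0.0027) and CDCA3 (-0.054) in LNCaP, COPS7A (0.033) and SPSB2 (0.033) in LNCaP95, and MLF2 (0.032), GPR162 (0.017), BECN1 (-0.014), LOXL3 (0.052), SMOX (0.044) and PAOX (0.041) in 22Rv1. With CPSF1 sh2 alone they were MLF2 in LNCaP (-0.0076) and PIANP (-0.16), FGL1 (-0.049) and PSME2 (-0.086) in 22Rv1. MLF2 in LNCaP was -0.0052 with no filter. With library size alone they were COPS7A (0.025) and PSMB10 (0.046) in LNCaP95 and LOXL3 (0.00022) in 22Rv1. With 1 library left out, ranges that crossed 0 were -0.023 to 0.012 for ZNF384 and -0.081 to 0.0019 for the AOC2 hairpin difference in LNCaP, -0.20 to 0.017 for SPSB2 and -0.11 to 0.096 for PSMB10 in LNCaP95, and -0.037 to 0.0035 for MLF2, -0.041 to 0.29 for AARSD1, -0.12 to 0.049 for LOXL3, -0.15 to 0.00068 for SMOX and -0.021 to 0.049 for PSME2 in 22Rv1.

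Replicate numbers were left out of the main fits, although same-numbered libraries showed some likeness in LNCaP and LNCaP95. Correlations of same-numbered deviations ran from -0.27 to 0.32, over 0.1 in 3, 3 and 1 of 9 pairs in LNCaP, LNCaP95 and 22Rv1. In the same order, 6, 6 and 2 of 9 libraries correlated best with their own number. With the replicate number as a block, calls went from 6892 to 6804, 7450 to 7080 and 3160 to 2638. The block gave calls for the LAG3 hairpin difference in 22Rv1 (0.32, edgeR adjusted p = 0.0381) and for PTMS in LNCaP95 against LNCaP controls (0.14, adjusted p = 0.0355), and none for LAG3 in 22Rv1 against LNCaP controls (0.54, adjusted p = 0.0886). It also ended the calls of SPSB2 (adjusted p = 0.0596) and CD276 (0.0681) in 22Rv1 and of FAM192A (0.0809) and PTMA (0.0647) in LNCaP95.

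Over all genes in 22Rv1, 3160 were called, against 1853 with CPSF1 sh1 alone, 6050 with CPSF1 sh2 alone and 1975 to 2004 without 1 of the CTRL sh replicates 1, 2 and 3. In LNCaP95, library size alone made 62.2% of calls higher in place of 49.6%, with a median over all genes of 0.088. Depth limits LAG3 most, at 10 to 17 counts in LNCaP controls.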
